A study of Mus musculus with 48 samples.

Results

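The genes described here are 7 mRNAs that mark the ductal epithelium of the pancreas and the tumors that resemble it: the keratins Krt7, Krt8, Krt18, Krt19 and Krt20, the transcription factor Sox9 and the membrane mucin Muc1. They were chosen by name, with earlier results of these data known, and their symbols were matched to the Ensembl identifiers of the count files. The other gene lists below were chosen in the same way. All 7 were found among the 50600 genes of the files, and all 7 were among the 13889 genes kept by the filter on low counts.

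The cells were mPDAC, a mouse pancreatic ductal adenocarcinoma cell line whose labels give the genetic background FVB/N x C57BL6 and an age of 8 weeks. N6L is a synthetic pseudopeptide that antagonises nucleolin. N6L-treated cultures received 50 µM for 48 h, and non-treated (NT) cultures received no N6L. From each culture, RNA was taken from the cytoplasmic lysate and from the pooled polysomal fractions of a sucrose gradient, so the groups were NT cytoplasm, NT polysomes, N6L cytoplasm and N6L polysomes, with 3 cultures each and 12 libraries in all. NT cultures are numbered 1, 2 and 4 and N6L-treated cultures 1, 2 and 3. Every library was sequenced as 4 technical replicates, which were summed to totals of 19519911 to 44972333 counts. All cultures are of one cell line, and the labels do not say whether they were started separately, so the tests measure the spread between these cultures only.

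Keratins build intermediate filaments as pairs of a type II and a type I chain. Krt8 and Krt7 are type II, and Krt18, Krt19 and Krt20 are type I. Krt8 with Krt18 is the basic pair of simple epithelia, Krt7 and Krt19 are added in ducts, and Krt20 is best known from intestinal and gastric epithelium. Sox9 is a transcription factor of the pancreatic progenitor that stays on in duct cells and is drawn on by acinar cells that turn duct-like. Muc1 covers the apical surface of ducts and is abundant in many adenocarcinomas.

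In GENCODE vM21 coordinates (GRCm38, the assembly that the labels name as mm10), 3 of the keratin genes lie on chromosome 15. Krt7 spans 101411043 to 101430313 on the plus strand, Krt8 spans 101996698 to 102004482 on the minus strand and Krt18 spans 102028180 to 102032027 on the plus strand. Krt8 and Krt18, whose products pair, are thus arranged head to head with 23.7 kb between their starts. On chromosome 11, Krt19 spans 100140810 to 100148665 and Krt20 spans 99428403 to 99438150, both on the minus strand, and Sox9 spans 112782224 to 112787760 on the plus strand. Muc1 spans 89229057 to 89233381 on the plus strand of chromosome 3.

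RefSeq (GRCm38.p6) lists a promoter for 5 of the 7 genes, and Krt19 and Sox9 have no entry in that table. The RefSeq starts differ from the GENCODE starts, at 101412403 for Krt7, 102004342 for Krt8 and 102028216 for Krt18. The Krt7 stretch below thus lies inside the GENCODE span of its gene, and so does most of the Krt8 stretch. Below are the bases from 150 before to 10 after the RefSeq starts of Krt7, Krt8 and Krt18. Between N6L-treated and NT cultures, Krt7 was the only keratin of the 7 genes called in the main fit. The head-to-head neighbours Krt8 and Krt18 were not called in that comparison. Capitals mark matches, on either strand, to a TATA box (TATAAA) or a GC box (GGGCGG).
Krt7, chr15:101412253-101412412, plus strand: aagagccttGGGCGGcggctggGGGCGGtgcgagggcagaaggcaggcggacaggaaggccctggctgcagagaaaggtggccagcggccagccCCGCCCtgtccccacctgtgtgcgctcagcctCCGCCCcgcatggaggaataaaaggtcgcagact
Krt8, chr15:102004333-102004492, minus strand: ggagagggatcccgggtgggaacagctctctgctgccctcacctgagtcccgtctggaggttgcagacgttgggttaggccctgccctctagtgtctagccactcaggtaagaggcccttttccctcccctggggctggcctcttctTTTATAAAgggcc
Krt18, chr15:102028066-102028225, plus strand: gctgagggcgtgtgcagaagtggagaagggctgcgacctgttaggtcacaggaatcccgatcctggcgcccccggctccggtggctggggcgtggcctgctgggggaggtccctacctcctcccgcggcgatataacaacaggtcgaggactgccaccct
The Krt7 stretch holds 4 GC boxes and no TATA box in these letters. The Krt8 stretch holds 2 overlapping TATA matches, 1 on each strand, of which the upstream one begins 3 bases before the RefSeq start, and the Krt18 stretch holds neither motif. Over the full windows of the table, from 250 bases before the start to 50 after it, Muc1 has 1 TATA box and 2 GC boxes and Krt20 has 1 TATA box. None of the 5 windows holds an AP-1 site (TGANTCA) or a SOX site (AACAAT). Of all 32851 mouse promoters in the table, 13.6% hold the TATA letters, 35.7% the GC box, 7.81% the AP-1 letters and 10.7% the SOX letters.

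Levels are given as CPM, the counts of a gene relative to the library total set to 1e6, after scaling of the libraries by the TMM method, and levels of different genes are compared per kilobase of transcript. In NT cytoplasm, Krt18 stood at 2179 ± 367 CPM per kilobase (SD, n = 3 cultures), Krt8 at 1442 ± 105 and Krt19 at 1030 ± 197, which are ranks 39, 65 and 90 among 13867 genes with a transcript length. Krt7 stood at 85.7 ± 23.1 CPM per kilobase, Muc1 at 46.1 ± 6.22, Krt20 at 29.9 ± 1.63 and Sox9 at 7.41 ± 1.16. The filament pair of simple epithelia and Krt19 thus lay within the top 0.649% of genes, whereas Sox9 lay near the middle, at 48.6% from the top. The place of Krt7 depends on its annotation, since its principal transcript in GENCODE is 4094 bases long and would be 1587 bases if it ended at the RefSeq gene end. With the shorter transcript Krt7 would stand at 221 CPM per kilobase. The order of the 7 genes was the same either way.

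The label of a ductal tumor line was compared with further markers. Of 16 other epithelial and ductal markers, 9 passed the filter, and the list summed to 384 to 426 CPM in NT cytoplasm. Most of it was Tspan8 at 178 CPM, Cdh1, the adhesion protein of epithelial junctions, at 105 CPM and Spp1 at 86.9 CPM. Epcam, a surface marker of most epithelia, stood at only 0.151 CPM. Other epithelial markers were low too, with Cldn1, Cldn4, Cldn7, Prom1 and St14 at 0 to 0.0636 CPM and Ocln and Cldn3 at 1.58 and 0.778 CPM. These genes and Vim were singled out here after their values were seen. Vim, the intermediate filament of mesenchymal cells, stood at 3073 ± 138 CPM in NT cytoplasm (SD, n = 3), so the cultures held both keratin and vimentin mRNAs. Of the lists for other cell types, the endocrine markers summed to at most 0.728 CPM, with Ins1, Ins2, Gcg, Ppy, Chga and Isl1 at 0 counts, the fibroblast markers to at most 1.49 CPM, with Lum at 0 counts, and the endothelial markers to at most 1.18 CPM in any library. The acinar markers summed to 30.1 to 87.0 CPM, most of it Cela1, with Cpa1, Cpb1, Pnlip, Cela2a, Amy2b and Ptf1a at 0 counts, and the immune markers to 57.1 to 122 CPM, most of it Cd14. In RNA from whole cultures, fewer cells that hold an mRNA and less of it per cell cannot be told apart.

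**Figure D1:**
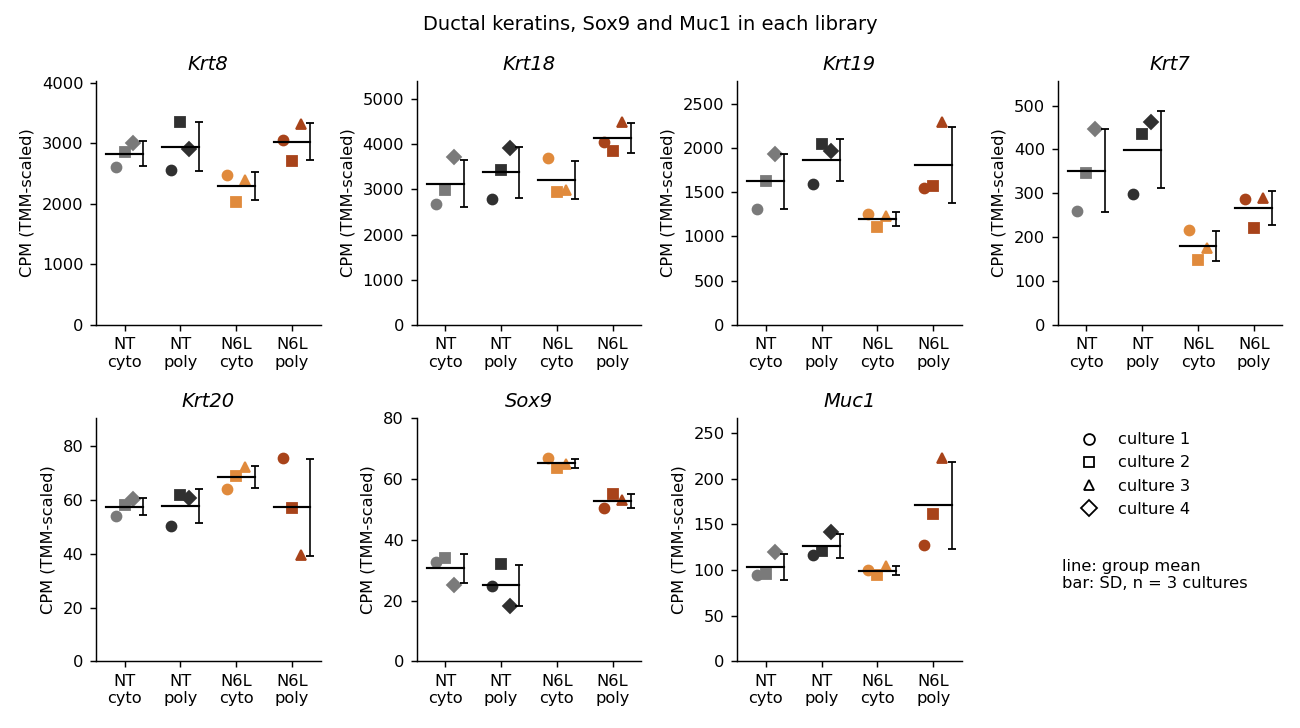
Level of each of the 7 mRNAs in each of the 12 libraries, in TMM-scaled CPM on a linear axis from 0, by group (NT or N6L-treated, cytoplasm or polysomes). Points are cultures, lines are group means and bars are SDs of 3 cultures. Sox9 is higher in every N6L library than in every NT library, and Krt7 is lower in every N6L library than in the NT libraries of the same fraction.

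The first question was which of these mRNAs changed in the cytoplasm under N6L. Sox9 rose and Krt7 fell, and the other 5 did not pass the limit. Across all genes, 14.5% were called higher and 13.8% lower at a false discovery rate (FDR) under 0.05, from the quasi-likelihood test of edgeR after Benjamini-Hochberg adjustment, and among the 7 genes 1 was called in each direction, so the share of calls was close to that of all genes. The median log2 fold change of the 7 was -0.06, beside 0.04 for all genes.

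Sox9 stood at 32.8, 34.0 and 25.1 CPM in the cytoplasm of NT cultures 1, 2 and 4 and at 66.7, 63.7 and 64.8 CPM in N6L-treated cultures 1, 2 and 3. The groups lay far apart, and the N6L-treated cultures differed from each other by less than the NT cultures did. The log2 fold change was 1.09 with a standard error of 0.19 (FDR 0.0023, edgeR), a 2.12-fold increase. It stayed past the limit under all 16 alternative settings, with FDR values up to 0.0258.

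Krt7 stood at 258, 347 and 448 CPM in NT cytoplasm and at 216, 148 and 174 CPM in N6L cytoplasm. All N6L-treated cultures lay below all NT cultures, although N6L culture 1 and NT culture 1 were close. The log2 fold change was -0.97 with a standard error of 0.23 (FDR 0.00829, edgeR), that is 0.511 times the NT level. All 16 alternatives kept it past the limit, and the FDR rose to as much as 0.0467 when single cultures were left out.

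The filament pair moved less. Krt8 stood at 2603, 2853 and 3012 CPM in NT cytoplasm and at 2470, 2036 and 2393 CPM in N6L cytoplasm, with no overlap between the groups. Its log2 fold change was -0.30 ± 0.15 (standard error, FDR 0.143 by edgeR). Krt18 stood at 2688, 2993 and 3714 CPM in NT cytoplasm and at 3704, 2935 and 2992 CPM in N6L cytoplasm. The Krt18 groups covered nearly the same range, and its log2 fold change was 0.04 (standard error 0.17, FDR 0.890, edgeR). When each library was also corrected for the length and GC content of transcripts by offsets, Krt18 was called higher by 0.41 (FDR 0.0361, edgeR) and Krt8 stood at -0.061.

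Krt19 stood at 1310, 1627 and 1932 CPM in NT cytoplasm and at 1249, 1108 and 1232 CPM in N6L cytoplasm. The groups did not overlap, and the log2 fold change of -0.44 (standard error 0.19) missed the limit at an FDR of 0.0897 (edgeR). It passed only when the 2 cytoplasmic groups were fitted alone, at -0.48 (FDR 0.0367, edgeR). With the length and GC offsets it was -0.083.

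Krt20 stood at 54.2, 58.1 and 60.5 CPM in NT cytoplasm and at 64.3, 69.1 and 72.5 CPM in N6L cytoplasm, again without overlap. The difference was small, at 0.25 on the log2 scale (standard error 0.20, FDR 0.336, edgeR). How many of all genes had groups without overlap was not counted, so the lack of overlap for Krt8, Krt19 and Krt20 does not set them apart. In this comparison 5907 of the 13889 genes tested had an unadjusted p under 0.05 by edgeR. Muc1 ranged from 94.3 to 119 CPM in NT cytoplasm and from 94.3 to 104 CPM in N6L cytoplasm, and its log2 fold change was -0.06 (standard error 0.19, FDR 0.843, edgeR). The lowest count behind any of these values was 466, for Sox9 in an NT polysomal library, where counting error alone is 4.63%. For Krt8 and Krt18 it is below 0.46%.

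**Figure D2:**
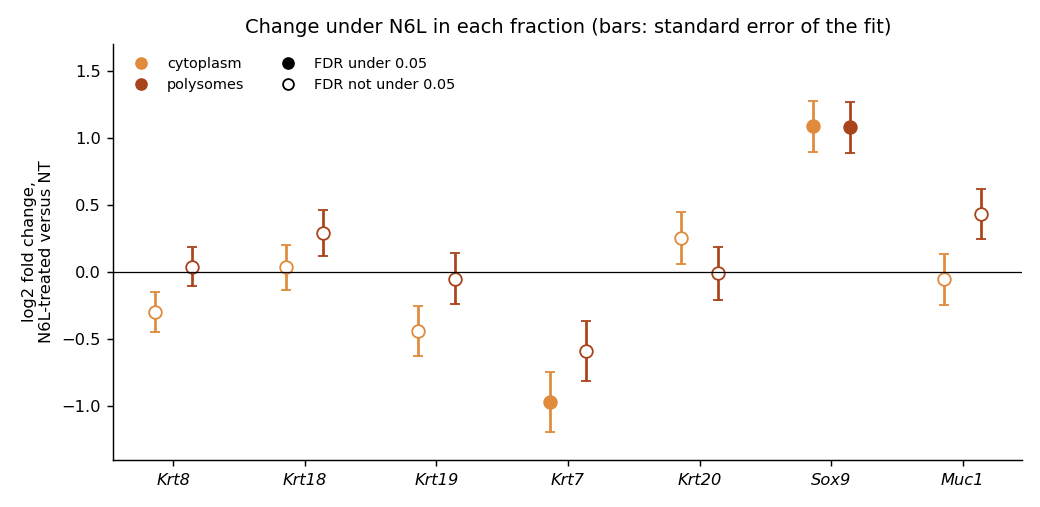
Log2 fold change of each mRNA between N6L-treated and NT cultures in the cytoplasm and in the polysomes, with standard errors of the fit over 3 cultures per group. Filled points passed an FDR of 0.05. Sox9 lies near 1.09 in the cytoplasm and 1.08 in the polysomes, and Krt7 at -0.97 and -0.59.

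The second question was what the polysomes carried under N6L. Sox9 rose there too, and it was the only one of the 7 called, in a comparison that called 6.01% of all genes higher and 3.66% lower. The median log2 fold change of the 7 was 0.04, beside 0.00081 for all genes. Both treatment comparisons use libraries from the same cultures, so they are not separate experiments.

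Sox9 stood at 24.7, 31.9 and 18.3 CPM in the polysomes of NT cultures 1, 2 and 4 and at 50.3, 54.9 and 53.1 CPM in those of N6L-treated cultures 1, 2 and 3. The groups were apart, and the log2 fold change of 1.08 (standard error 0.19, FDR 0.00514, edgeR) nearly equalled that in the cytoplasm. Without N6L culture 2 the change was 1.05 and its FDR 0.0574, and 15 of the 16 alternatives kept it past the limit. Dropping that culture lowered the polysomal calls over all genes from 1343 to 146.

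Krt7 stood at 299, 436 and 464 CPM in NT polysomes and at 286, 221 and 290 CPM in N6L polysomes. The groups did not overlap, but the gap between the highest N6L-treated and the lowest NT library was small, and the log2 fold change of -0.59 (standard error 0.22) did not pass the limit (FDR 0.112, edgeR). Under 2 alternatives it did, at -0.74 with the length and GC offsets (FDR 0.028, edgeR) and at -0.58 without the filter on low counts (FDR 0.0377, edgeR).

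Muc1 stood at 117, 120 and 141 CPM in NT polysomes and at 128, 162 and 222 CPM in N6L polysomes. The groups overlapped through N6L culture 1, and the log2 fold change was 0.43 (standard error 0.19, FDR 0.154, edgeR). Krt18 stood at 2790, 3431 and 3912 CPM in NT polysomes and at 4057, 3853 and 4503 CPM in N6L polysomes, which is a log2 difference of 0.29 (standard error 0.17, FDR 0.292, edgeR). For Krt8, Krt19 and Krt20 the log2 fold changes were 0.04, -0.05 and -0.01, with overlapping groups.

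Krt20 spread widely in N6L polysomes, at 75.6, 57.0 and 39.5 CPM in cultures 1, 2 and 3. In NT polysomes it stood at 50.6, 62.0 and 60.7 CPM. The SD in N6L polysomes was 18.1 CPM, beside 6.28 CPM in NT polysomes and 4.13 CPM in N6L cytoplasm. The 3 N6L-treated cultures thus lay close together for Krt20 in the cytoplasm and far apart in the polysomes.

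Over the 4 groups, Sox9 was lowest in NT polysomes (25.0 ± 6.84 CPM, SD, n = 3), followed by NT cytoplasm (30.6 ± 4.80), N6L polysomes (52.8 ± 2.28) and N6L cytoplasm (65.1 ± 1.56). The libraries of the first pair overlapped, and those of every later neighbour in the order did not. Krt7 ran the other way, from N6L cytoplasm (180 ± 34.4) through N6L polysomes (266 ± 38.8) and NT cytoplasm (351 ± 94.6) to NT polysomes (399 ± 88.2). For Krt7 only the NT groups overlapped within a treatment, and N6L polysomes overlapped with NT cytoplasm.

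Because type II and type I chains are used in pairs, the ratio of their mRNAs was followed within each library. These 6 comparisons, including the keratin shares below, were tested with exact two-sided permutation tests over cultures, and 3 cultures against 3 allow no p below 0.1. In the cytoplasm, the Krt8 to Krt18 ratio of counts per kilobase was 0.711, 0.700 and 0.595 in NT cultures 1, 2 and 4 and 0.489, 0.509 and 0.587 in N6L-treated cultures 1, 2 and 3. The groups did not overlap but nearly touched, and the log2 ratio was 0.34 lower under N6L, from -0.59 ± 0.14 to -0.92 ± 0.14 (SD, n = 3 each, exact permutation p = 0.1, adjusted over the 6 comparisons p = 0.2). In the polysomes the same ratio was 0.673, 0.718 and 0.546 in NT cultures and 0.552, 0.517 and 0.540 in N6L-treated cultures, with overlap (log2 difference -0.26, exact permutation p = 0.2, adjusted p = 0.24).

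The Krt7 to Krt19 ratio in the cytoplasm was 0.0759, 0.0821 and 0.0892 in NT cultures and 0.0666, 0.0514 and 0.0545 in N6L-treated cultures. It was 0.695 times the NT value (log2 difference -0.52, exact permutation p = 0.1, adjusted p = 0.2). In the polysomes it was 0.0721, 0.0822 and 0.0909 in NT cultures and 0.0713, 0.0542 and 0.0486 in N6L-treated cultures, which was 0.704 times the NT value (exact permutation p = 0.1, adjusted p = 0.2). These ratios do not depend on factors that scale a library as a whole, and their level as computed here, though not their change, depends on the transcript length taken for Krt7. The length and GC offsets, which differ between genes, were not applied to the ratios. With them the cytoplasmic log2 fold changes were -1.19 for Krt7 and -0.083 for Krt19.

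**Figure D3:**
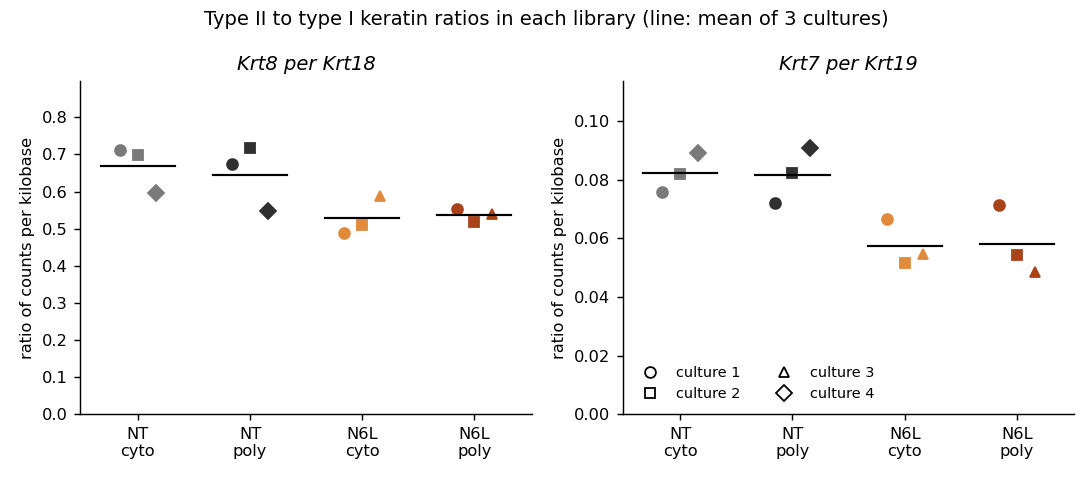
Ratio of counts per kilobase of Krt8 to Krt18 and of Krt7 to Krt19 in each library, by group, on linear axes from 0. Points are cultures and lines are means of 3 cultures. The cytoplasmic Krt7 to Krt19 ratio is 0.0759 to 0.0892 in NT cultures and 0.0514 to 0.0666 in N6L-treated cultures.

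Together the 5 keratins took 0.693%, 0.798% and 0.864% of all cytoplasmic counts in NT cultures 1, 2 and 4 and 0.833%, 0.693% and 0.746% in N6L-treated cultures 1, 2 and 3. The groups overlapped (difference -0.028 percentage points, exact permutation p = 0.7, adjusted p = 0.7). In the polysomes the share was 0.704%, 0.898% and 0.822% in NT cultures and 0.926%, 0.872% and 0.959% in N6L-treated cultures. That difference of 0.111 percentage points came with overlap of 1 library on each side (exact permutation p = 0.2, adjusted p = 0.24).

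The third question was how each mRNA was divided between polysomes and cytoplasm. In NT cultures none of the 7 differed between fractions, by edgeR or by DESeq2, and none had an unadjusted p under 0.05 by either tool. That comparison called 0.209% of all genes in either direction by edgeR. The log2 polysome-to-cytoplasm ratio of the 7 had a median of 0.11, beside 0.03 for all genes.

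In N6L-treated cultures, Muc1, Krt19 and Krt8 were higher in the polysomes than in the cytoplasm. The comparison called 18.4% of all genes higher and 20.6% lower, and 3 of the 7 genes were called higher and 0 lower. The median log2 ratio of the 7 was 0.40, beside 0.03 for all genes.

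For Muc1 the log2 ratio was 0.31, 0.32 and 0.25 in NT cultures 1, 2 and 4 and 0.36, 0.78 and 1.09 in N6L-treated cultures 1, 2 and 3. N6L culture 1 lay close to the NT cultures. The fitted log2 ratio under N6L was 0.78 (standard error 0.19, FDR 0.00782, edgeR).

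For Krt19 the log2 ratio was 0.28, 0.33 and 0.024 in NT cultures and 0.31, 0.50 and 0.90 in N6L-treated cultures, and the fitted value under N6L was 0.59 (standard error 0.19, FDR 0.024, edgeR). For Krt8 it was -0.026, 0.23 and -0.048 in NT cultures and 0.31, 0.41 and 0.47 in N6L-treated cultures, and the fitted value under N6L was 0.40 (standard error 0.15, FDR 0.0473, edgeR). The Krt8 ratio was higher in each N6L-treated culture than in any NT culture. The same held for Muc1, by a small gap, and for Krt7. The Krt7 ratio was 0.21, 0.33 and 0.050 in NT cultures and 0.41, 0.58 and 0.74 in N6L-treated cultures. How many of all genes had ratios apart in this way was not counted, so it does not set these genes apart. Krt7 had a fitted ratio under N6L of 0.57 (standard error 0.22, FDR 0.0583, edgeR) and Krt18 one of 0.37 (standard error 0.17, FDR 0.0983, edgeR).

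With the culture as a replicate block, which pairs the fractions of one lysate, Krt7 and Krt18 passed as well, at 0.57 (FDR 0.00277, edgeR) and 0.37 (FDR 0.0178, edgeR), and 5 of the 7 genes were called higher. The number of calls changed when single cultures were left out and with the correction for transcript properties. Without N6L culture 2, or without N6L culture 3, 0 of the 7 were called by edgeR, and without NT culture 4, 5 were. Calls over all genes went the same way. They numbered 5415 in the main fit, 1153 with N6L culture 2 dropped, 1653 with N6L culture 3 dropped and 5861 with NT culture 4 dropped. With 1 culture left out, the log2 ratio was 0.36 to 0.44 for Krt8, 0.40 to 0.72 for Krt19 and 0.58 to 0.95 for Muc1. With the length and GC offsets 0 were called, Krt8 stood at -0.12 (FDR 0.584, edgeR), Krt19 at -0.072 (FDR 0.693, edgeR), Krt18 at -0.28 (FDR 0.175, edgeR) and Muc1 at 0.36 (FDR 0.0528, edgeR), and with these offsets and the block Krt18 was called lower at -0.29 (FDR 0.0179, edgeR) while Krt7 and Muc1 were called higher at 0.60 (FDR 0.00264, edgeR) and 0.36 (FDR 0.0113, edgeR). Krt18, Krt19 and Krt8 have transcripts of 1437, 1576 and 1958 bases with 56.4%, 57.6% and 57.1% GC, beside medians of 2864 bases and 50.2% over the genes tested, and the direction of their polysome-to-cytoplasm difference turned with the offsets. Whether length, GC content or neither accounts for this was not tested. Krt7 kept 0.60 with the offsets, which used its 4094-base transcript.

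Sox9 was on the lower side in the polysomes in both treatments, with log2 ratios of -0.41, -0.090 and -0.46 in NT cultures and -0.41, -0.21 and -0.29 in N6L-treated cultures. The fitted values were -0.30 in NT cultures (FDR 0.492, edgeR) and -0.30 in N6L-treated cultures (FDR 0.206, edgeR), so neither passed the limit, and with the offsets the second was -0.069. Krt20 had log2 ratios of 0.23, -0.28 and -0.88 in N6L-treated cultures 1, 2 and 3, and its fitted value of -0.26 (FDR 0.298, edgeR) became -0.55 (FDR 0.0435, edgeR) without N6L culture 1.

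**Figure D4:**
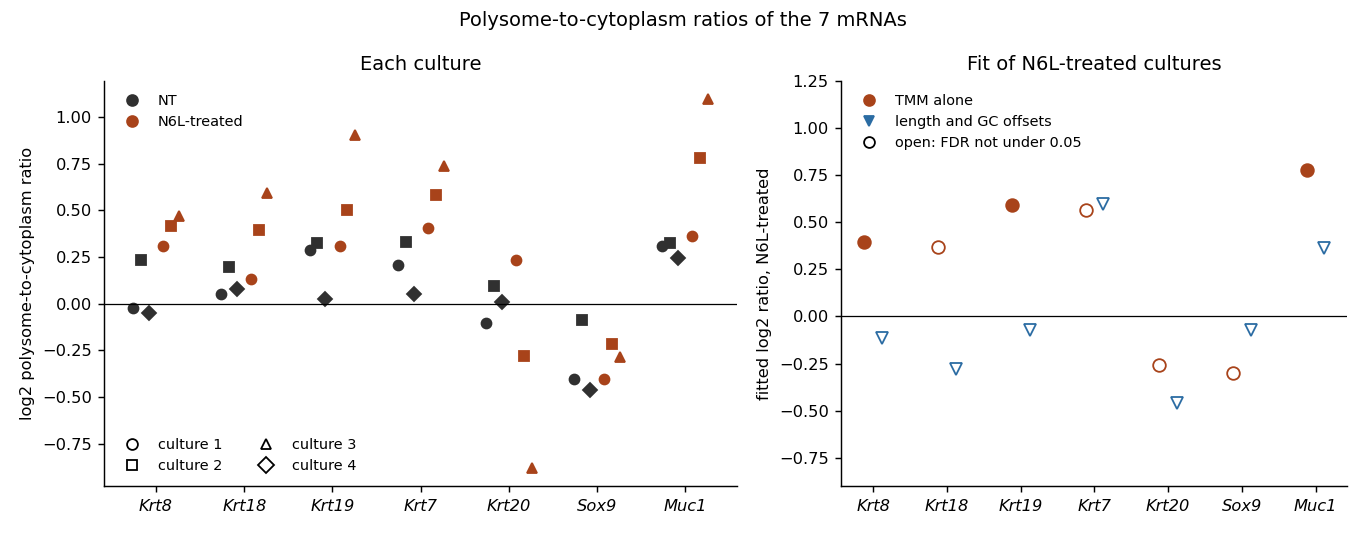
Left, log2 polysome-to-cytoplasm ratio of each mRNA in each culture. Right, fitted log2 ratio in N6L-treated cultures with TMM scaling alone and with offsets for transcript length and GC content, where filled points passed an FDR of 0.05. Krt8 moves from 0.40 to -0.12 and Krt19 from 0.59 to -0.072 between the fits, and no point passes with the offsets.

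The translational index (TI) compares the polysome-to-cytoplasm ratio of N6L-treated with that of NT cultures, and here it was tested as 1 contrast. It was past the limit for 0 of the 7 genes and for 0% of all genes by edgeR, and for 0 by DESeq2. None of the 7 had an unadjusted p under 0.05 by either tool, while 1074 of all genes did by edgeR. The log2 index of Muc1 was 0.49 (standard error 0.26, FDR 0.555, edgeR), that of Krt19 0.39, of Krt7 0.38, of Krt8 0.34, of Krt18 0.26, of Krt20 -0.26 and of Sox9 -0.0061, with standard errors of 0.21 to 0.32. The index of Sox9 was near 0, since its mRNA rose by about the same factor in both fractions. The differences between treatments in the polysome-to-cytoplasm ratios are thus not shown to hold beyond the spread of the cultures.

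Of 15 other keratins, which summed to 215 to 259 CPM in NT cytoplasm, 9 passed the filter, and Krt1 and Krt6b had 0 counts in all libraries. Most of the sum was Krt23, a type I keratin named after its values were seen, at 199.8 ± 20.8 CPM in NT cytoplasm and 159 ± 8.61 CPM in N6L cytoplasm (SD, n = 3 each, log2 fold change -0.33, FDR 0.0742, edgeR). In the cytoplasm under N6L, 2 rose and 2 fell, beside 14.5% of all genes called higher and 13.8% lower. Krt80, a type II keratin, rose from 13.9 ± 4.20 to 30.2 ± 3.30 CPM (SD, n = 3 each, log2 fold change 1.11, FDR 0.00398, edgeR), and Krt15, a type I keratin of basal and stem-like epithelial cells, rose from 0.245 to 0.952 CPM. Krt14, a type I keratin of basal cells, fell from 2.81 ± 1.21 to 1.02 ± 0.101 CPM (SD, n = 3 each, log2 fold change -1.45, FDR 0.00551, edgeR), and Krt10 fell from 9.36 to 5.59 CPM. In the polysomes Krt80 rose by 0.80 (FDR 0.0348, edgeR) and Krt14 changed by -1.27 (FDR 0.0195, edgeR) on the log2 scale. The polysomal comparison called 6.01% of all genes higher and 3.66% lower. The median log2 fold change of the 9 was -0.33 in the cytoplasm and -0.40 in the polysomes, beside 0.04 and 0.00081 for all genes. Both polysomal calls were lost without NT culture 1, N6L culture 2 or N6L culture 3, that of Krt80 also without NT culture 4. The Krt10 call was lost without NT culture 4, N6L culture 1 or N6L culture 2. Such losses, here and in the lists below, were not limited to listed genes. Cytoplasmic calls over all genes numbered 3935 in the main fit, 1295 with N6L culture 2 dropped and 4042 with N6L culture 3 dropped. Polysomal calls numbered 1343, 146 with N6L culture 2 dropped and 203 with NT culture 1 dropped. They numbered 1095 with N6L culture 3 dropped and 1579 with N6L culture 1 dropped.

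The proteins that anchor keratin filaments at desmosomes and link them to other filaments were counted next. Of 10 tested, 5 rose in the cytoplasm under N6L and 0 fell, with a median log2 fold change of 0.63. Of all genes, 14.5% were called higher and 13.8% lower there, with a median of 0.04. The list was chosen with earlier results of these data known, so this contrast with all genes is a description and not a test. Periplakin mRNA (Ppl) rose from 23.8 ± 3.92 to 82.8 ± 4.17 CPM (SD, n = 3 each, log2 fold change 1.80, FDR 0.00249, edgeR). Desmoplakin mRNA (Dsp), which encodes the protein that ties keratins to the desmosome, rose from 220 ± 62.5 to 512 ± 12.1 CPM (SD, n = 3 each, log2 fold change 1.22, FDR 0.0161, edgeR). Plakoglobin mRNA (Jup) rose by 0.85 (FDR 0.00351, edgeR) and plakophilin 2 mRNA (Pkp2) by 0.73 (FDR 0.0262, edgeR) on the log2 scale. Without NT culture 1, NT culture 4 or N6L culture 2, 2 of the 10 were called higher.

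In the polysomes, 1 of these 10 rose and 1 fell under N6L, beside 6.01% of all genes called higher and 3.66% lower. Jup rose by 0.78 (FDR 0.0116, edgeR), and plectin mRNA (Plec), the large linker between filament systems, fell from 205 ± 29.7 to 95.2 ± 26.1 CPM (SD, n = 3 each, log2 fold change -1.11, FDR 0.00821, edgeR). Both calls were lost without N6L culture 2, and that of Jup also without NT culture 1. Within N6L-treated cultures, 6 of the 10 were lower in the polysomes than in the cytoplasm and 0 higher, with a median log2 ratio of -0.85. Of all genes, 20.6% were called lower and 18.4% higher in that comparison, with a median of 0.03. Dst, another large linker, was lower by a log2 ratio of -2.17 (FDR 0.00427, edgeR), Dsp by -1.79 (FDR 0.0043, edgeR), Ppl by -1.24 (FDR 0.00947, edgeR) and Plec by -1.16 (FDR 0.0044, edgeR). With the length and GC offsets 4 of the 10 were called lower and the median was -0.55, and without N6L culture 2 or N6L culture 3, 3 were called lower. The transcripts of Dst, Plec, Dsp and Ppl are 23279, 15455, 9592 and 6217 bases long. None of the 10 had a TI past the limit by edgeR.

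Of 14 other transcription factors of epithelial and pancreatic identity that were tested, 7 rose in the cytoplasm and 0 fell, with a median log2 fold change of 0.52. Of all genes, 14.5% were called higher and 13.8% lower in the cytoplasm, with a median of 0.04. This list too was chosen with earlier results of these data known, so the contrast is a description only. The shares were 6.01% and 3.66% in the polysomes, and 18.4% and 20.6% between fractions of N6L-treated cultures. Klf5 rose from 34.4 ± 11.4 to 93.2 ± 3.41 CPM (SD, n = 3 each, log2 fold change 1.44, FDR 0.00314, edgeR), Hnf4a, a factor of gut and liver epithelium, from 270 ± 10.7 to 416 ± 19.3 CPM (log2 fold change 0.62, FDR 0.00559, edgeR), Ehf from 2.30 to 6.93 CPM and Grhl2 from 0.343 to 1.16 CPM. Without NT culture 1, NT culture 4 or N6L culture 2, 4 of the 14 were called higher. In the polysomes 3 rose and 0 fell, Gata4 by 0.72 (FDR 0.0142, edgeR), Foxa2 by 0.56 (FDR 0.0287, edgeR) and Hnf4a by 0.44 (FDR 0.0496, edgeR) on the log2 scale. Nkx6-1 had 0 counts in all libraries. Within N6L-treated cultures, 2 of the 14 were higher in the polysomes, Foxa2 and Pdx1, and 4 lower, Onecut2 at -1.21 (FDR 0.00548, edgeR), Ehf at -0.96 (FDR 0.0217, edgeR), Klf5 at -0.76 (FDR 0.0357, edgeR) and Gata6 at -0.53 (FDR 0.0439, edgeR). With the length and GC offsets Onecut2 turned to 0.035. The 3 polysomal increases were lost without NT culture 1 or N6L culture 2, 1 was called without NT culture 4 or N6L culture 3, and 1 of the 4 lower calls was made without N6L culture 2 or N6L culture 3.

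**Figure D5:**
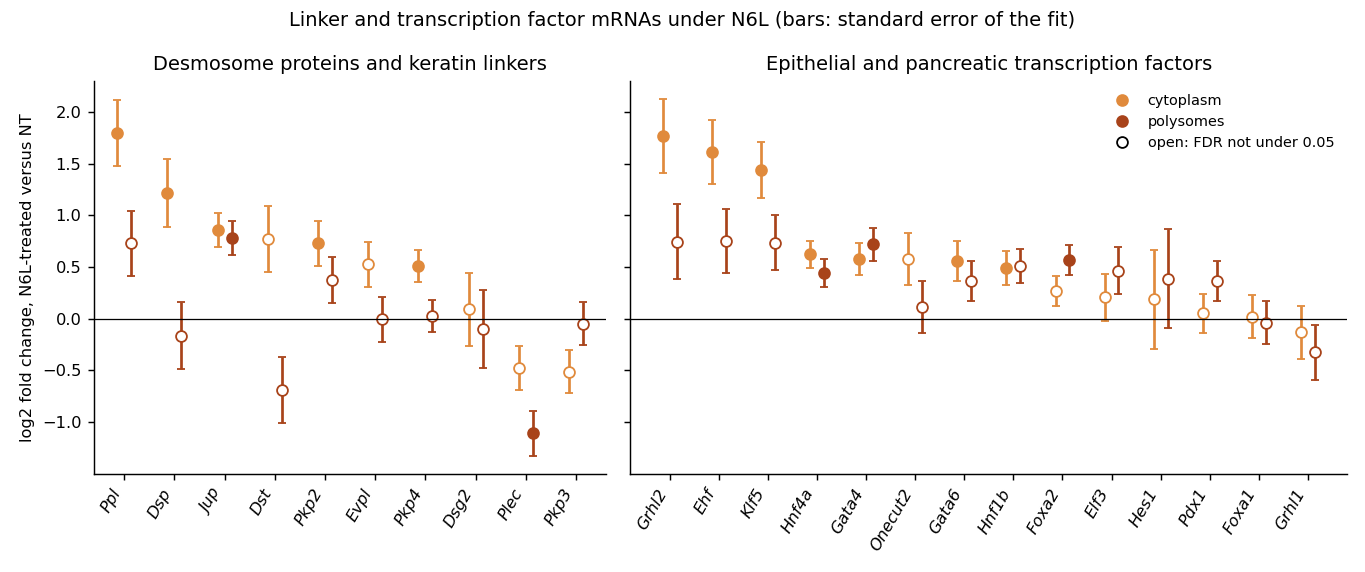
Log2 fold change between N6L-treated and NT cultures in the cytoplasm and polysomes for the 10 linker mRNAs and the 14 transcription factors tested, with standard errors of the fit over 3 cultures per group. Filled points passed an FDR of 0.05. In the cytoplasm 5 linkers and 7 factors are filled, and all of these lie above 0.

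Of the relatives of Sox9, 7 of 13 other Sox genes passed the filter, Sox10 had 0 counts, and 0 of the 7 passed the limit under N6L in either fraction by edgeR or by DESeq2. At an unadjusted p under 0.05 there were 0 in the cytoplasm and 2 in the polysomes. For this and the following lists, 14.5% of all genes were called higher and 13.8% lower in the cytoplasm. The shares were 6.01% and 3.66% in the polysomes, and 18.4% and 20.6% between fractions of N6L-treated cultures. Between fractions of N6L-treated cultures Sox6 was lower in the polysomes, at -1.23 (FDR 0.0212, edgeR), a call lost without any one of the N6L-treated cultures and with the length and GC offsets. Its level was low, at 0.451 CPM in N6L cytoplasm and 0.190 CPM in N6L polysomes. Among mucins and trefoil factors other than Muc1, 6 of 12 passed the filter and Muc15 had 0 counts. In the cytoplasm, the gel-forming mucin Muc5b rose from 81.0 ± 20.5 to 158 ± 25.6 CPM and the secreted trefoil factor Tff1 fell from 4333 ± 1696 to 2407 ± 385 CPM (SD, n = 3 each), with log2 fold changes of 0.96 (FDR 0.0126, edgeR) and -0.85 (FDR 0.0461, edgeR). Both calls were lost without NT culture 2 or N6L culture 2 and with the length and GC offsets, and that of Tff1 also without NT culture 4 or N6L culture 1. In the polysomes 0 of the 6 were called by edgeR or DESeq2, and 1 had an unadjusted p under 0.05. Between fractions of N6L-treated cultures, 2 were higher in the polysomes, Tff1 at 1.01 (FDR 0.0182, edgeR) and Tff3 at 1.15 (FDR 0.0433, edgeR), and 3 were lower, Muc2 at -2.94 (FDR 0.00508, edgeR), Muc5b at -1.38 (FDR 0.00427, edgeR) and Muc5ac at -1.37 (FDR 0.00485, edgeR). Muc2 stood at only 0.824 CPM in N6L cytoplasm and 0.105 CPM in N6L polysomes, with at most 50 counts in any library. With the length and GC offsets, which used a transcript of 2032 bases for Muc2, 1 of the 5 was called, Muc2, and without N6L culture 2 or N6L culture 3 there were 2 and 3 calls, all lower. Of the 9 epithelial and ductal markers tested, Spp1, a secreted phosphoprotein of ducts, rose by 1.04 in the cytoplasm and 1.16 in the polysomes (FDR 0.015 and 0.0213, edgeR), and the duct enzyme Car2 fell from 24.5 to 13.6 CPM and from 24.3 to 11.5 CPM (FDR 0.00519 and 0.00413, edgeR). Tspan8 was called higher in the polysomes, by 0.63 (FDR 0.0355, edgeR). The Spp1 call in the cytoplasm was lost without NT culture 4 or N6L culture 2, and both polysomal increases were lost without any one of the cultures other than N6L culture 3. The Car2 call in the polysomes was lost without N6L culture 2. Between fractions of N6L-treated cultures Cldn3, a tight junction protein, was higher in the polysomes at 1.00 (FDR 0.0431, edgeR), and Cftr, the chloride channel of ducts, and Cdh1 were lower at -1.58 (FDR 0.00764, edgeR) and -0.66 (FDR 0.0137, edgeR). In N6L cytoplasm and N6L polysomes Cldn3 stood at 0.944 and 1.90 CPM, Cftr at 0.774 and 0.250 CPM and Cdh1 at 140 and 89.0 CPM. None of these 3 calls was made without N6L culture 2 or N6L culture 3, that of Cldn3 was also lost without NT culture 1 or NT culture 2, and Cdh1 alone kept its call with the offsets. Of 6 other intermediate filament and lamin mRNAs, Lmnb2 fell in the cytoplasm and Nes fell in the polysomes, and Nes was lower in the polysomes than in the cytoplasm of N6L-treated cultures (log2 ratio -0.94, FDR 0.00427, edgeR).

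The profiles over the 12 libraries were compared with those of 8959 genes whose mean level reached 10 CPM, by Pearson's r of log2 values. The libraries come from 6 cultures and share treatment and fraction, so these values describe likeness only. Sox9 was most like Cyp51 (r = 0.988), Egr1 (0.983) and Sqle (0.980), of which Cyp51 and Sqle encode enzymes of sterol synthesis and Egr1 an immediate-early transcription factor, and 201 genes had r over 0.9. Krt7 was most like Thop1 (0.965), Pdlim1 (0.955) and Cbr1 (0.952), and Muc1 was most like Eno3 (0.991), Mapk3 (0.986) and Unc119 (0.983), with 98 and 308 genes over 0.9. Krt19 was most like Eif2b4 (0.976), Idh3g (0.972) and Tst (0.971), with 434 genes over 0.9.

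The filament pair had few near profiles. Krt8 was most like Eif3d (0.932), Ranbp3 (0.921) and Slc3a2 (0.918), with 12 genes over 0.9, and Krt18 was most like Pdx1 (0.930), Mocos (0.919) and Traf1 (0.917), with 4 genes over 0.9. Krt20 was most like Ints4 (0.943), Nt5c2 (0.938) and Pak1 (0.928), with 5 genes over 0.9. Neither partner of the Krt8 and Krt18 pair was among the 3 nearest profiles of the other, and their own r was 0.61, beside 0.90 between Krt8 and Krt19.

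Some properties of the libraries bear on these values. The 4 technical replicates of a library varied little beyond counting noise, with chi-square values of 1.02 to 1.04 times their degrees of freedom. For 3 technical replicates of N6L culture 2, cytoplasm, 2 label fields disagree on the culture, and leaving them out changed no call among the 7 genes. With libraries scaled by their totals alone, the median log2 fold change of all genes in the cytoplasm moved from 0.04 to 0.19, and Sox9 and Krt7 stood at 1.22 and -0.82 there, both past the limit. The share of calls that were higher moved at the same time from 51.2% to 65.5% in the cytoplasm, from 62.2% to 77.6% in the polysomes and from 47.3% to 36.1% between fractions of N6L-treated cultures, and in the polysomes it was 48.9% with the length and GC offsets. Mitochondrially encoded genes took 0.454% to 0.966% of counts in NT cytoplasm and 0.121% to 0.242% in N6L cytoplasm, without overlap, and 0.0157% to 0.116% in the polysomes. The part of this difference in the cytoplasmic calls was not tested. Krt8-ps, a pseudogene of Krt8, had 27 to 98 counts per library, far below Krt8. Of the markers of other cell types, Bhlha15 (acinar) was called higher under N6L in both fractions and Pecam1 (endothelial) in the cytoplasm, and Cela1 (acinar), Cd14 and Csf1r (immune) were higher in the polysomes than in the cytoplasm of N6L-treated cultures. Bhlha15, Pecam1 and Csf1r had low levels, with group means of at most 2.75, 0.388 and 1.88 CPM. The part of these cells or levels in the values of the 7 genes was not tested.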

How the data were processed

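Cytoplasmic and polysomal polyA RNA of 6 mPDAC cultures was sequenced by the authors, who deposited 48 files of raw counts per Ensembl gene. Per the labels, STAR, HTSeq 0.5.3 and bcl2fastq 2.18.0.12 were used with the mm10 assembly. For multi-mapped reads and the strand setting the treatment is not given in the sources used here. Polysomes came from the same lysate as the cytoplasmic aliquot, so fractions of one culture are paired. Their deviations from the group means correlated at 0.456, 0.559 and 0.750 in NT and 0.0778, 0.436 and 0.298 in N6L-treated cultures.

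The 4 technical replicates were summed, 13889 genes passed filterByExpr, and edgeR 4.0.16 (R 4.3.3) was fitted to all 12 libraries with TMM factors, 1 mean per group and quasi-likelihood tests. P-values were adjusted over all genes tested by the Benjamini-Hochberg method. DESeq2 1.42.0, other scalings and filters, left-out cultures, a replicate block, and offsets per library from splines of transcript length and GC content were alternatives. Tests were tried on simulated data. Totals of 19519911 to 44972333 counts set the counting error.

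All 7 genes are described in full. In each other list up to 4 genes with the largest changes past the limit in a comparison were named, and for each of the 7 genes its 3 nearest profiles. Genes named outside this rule were chosen after their values were seen. The 7 genes and the lists were chosen with earlier results of these data known. The result for 1 gene of the epithelial and ductal list is not reported here.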

Additional observations from a re-analysis of the deposited data

How the results depend on the processing

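The 574 values of the 7 genes under 17 alternatives kept their direction and side of the limit in 490 cases and turned in 55, of which 4 had been past the limit. Of 823 values of other listed genes, 659 kept both, 162 lost the limit and 2 turned. The cause of these shifts was not tested.

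Log2 values that turned were small or came with the length and GC offsets. In the cytoplasm Krt18 was -0.0042 with only the groups compared (-0.078 to 0.15 with 1 culture left out), and Muc1 was 0.093 with library totals alone and 0.061 with the offsets (-0.12 to 0.031). In the polysomes Krt8 was -0.048 with the offsets (-0.051 to 0.15), Krt19 was 0.024 with totals alone (-0.26 to 0.052), and Krt20 was 0.093 with totals alone, 0.099 with the replicate block and 0.013 with the offsets (-0.26 to 0.20). Between fractions of NT cultures Krt8 was -0.012 with totals alone, -0.13 with the offsets and -0.13 with offsets and block (-0.037 to 0.097), Krt18 was -0.16 and -0.16 and Krt19 -0.033 and -0.030 with the offsets without and with the block, and Krt20 was -0.071 with totals alone, -0.0096 with technical replicate a, -0.00045 with the block, -8.58e-05 with only the groups compared, -0.11 with the offsets and -0.12 with offsets and block (-0.042 to 0.051). Between fractions of N6L-treated cultures the offsets without and with the block gave -0.12 and -0.13 for Krt8, -0.28 and -0.29 for Krt18, -0.072 and -0.074 for Krt19, and 0.035 and 0.026 for Onecut2. For the TI they gave -0.12 and -0.13 for Krt18, -0.039 and -0.044 for Krt19, and 0.20 and 0.21 for Sox9, which was also 0.013 with RLE factors, 0.014 with DESeq2, 0.012 without the replicates of conflicting labels and 0.015 with the block (-0.064 to 0.13).

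Of the 7 genes, 2 were called in the polysomes with no filter and 2 with the offsets (0 to 1 with 1 culture left out), and 5 between fractions of N6L-treated cultures with the block and 0 with the offsets (0 to 5). The cytoplasmic keratin share difference ranged from -0.074 to 0.012 percentage points with 1 culture left out. Summed over the other lists, without those for other cell types, 21 genes were called in the cytoplasm (10 to 21) and 11 in the polysomes (1 to 12), with 4 for only the groups compared and 18 with the offsets. Between fractions, 0 were called by edgeR in NT cultures (0 to 2), with 6 for no filter, 2 by DESeq2, 1 with the block and 3 with offsets and block, and 22 in N6L-treated cultures (7 to 27), with 9 for the offsets. For the TI, 0 were called by edgeR and 3 with no filter.

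NT and N6L-treated cultures share only the numbers 1 and 2, whose deviations correlated at 0.206 and 0.0658 in the cytoplasm and 0.399 and -0.024 in the polysomes. With these numbers as a block, Sox9 and Krt7 kept their calls.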

Other observations

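Hes1, a transcription factor downstream of Notch that is linked to duct identity, was singled out after its values were seen. It averaged 367 ± 83.6 CPM in NT cytoplasm and 374 ± 82.2 CPM in NT polysomes (SD, n = 3 each). In N6L cytoplasm it stood at 769 CPM in culture 1 and at 237 and 247 CPM in the other cultures, and in N6L polysomes at 916 CPM in culture 1 and at 272 to 278 CPM in the others. In the same N6L cytoplasm libraries Sox9 stood at 66.7 CPM in culture 1 and at 63.7 and 64.8 CPM in the others. Krt7 stood there at 216 CPM in culture 1, the highest of the 3, and at 148 and 174 CPM in the others. In N6L polysomes culture 1 was not the highest for either gene. Sox9 stood there at 50.3, 54.9 and 53.1 CPM and Krt7 at 286, 221 and 290 CPM in cultures 1, 2 and 3.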
